A study of Mus musculus with 19 samples.

Results

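Aldh1l1, S100b, Ndrg2, Slc4a4, Cldn10, Fabp7, Acsbg1, Ntsr2, Slc7a10 and Htra1 are 10 genes widely used to recognise mouse astrocytes. Their rows were taken by symbol from the deposited gene matrix, and all 10 were found among its 21749 rows and among the 20644 genes tested. Levels were measured in messenger RNA bound to tagged ribosomes of astrocytes (translating ribosome affinity purification, TRAP). None of the 10 passed the test between any of the stages of the estrous cycle that were sampled, or between males and metestrus females. The 95% interval of each fold change lay within 2-fold either way in all 4 comparisons. From library to library several of them varied together, Aldh1l1 and Acsbg1 most closely before group and batch were fitted. No pair with Fabp7, the most variable of the 10, or with S100b passed the test, which used values before group and batch were fitted.

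All mice, male and female, carried the transgene Tg(Aldh1l1-EGFP/Rpl10a)JD130Htz on a B6;FVB background. In it, Aldh1l1 regulatory sequence drives the ribosomal protein Rpl10a fused to EGFP. The labels name no agent. There were 8 metestrus, 3 proestrus and 4 estrus libraries from females collected at 09:00, and 4 male libraries whose hour of collection is not given. Proestrus is labelled "Pro-Day". The tissue label is brain, the series title names the cortex, and the labels used here state no ages. The tag is thus driven by the regulatory sequence of a member. No unpurified RNA is among the libraries used here, so enrichment for astrocytes cannot be measured. Fewer astrocytes and less ribosome-bound RNA per astrocyte cannot be told apart in such bulk libraries.

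The labels also give a batch. Batch 2 was made up of 3 estrus libraries with 2 from metestrus and 2 from proestrus, batch 3 of a single library per stage, and batch 4 of the 4 males with 5 from metestrus. Whether libraries came from separate animals is not stated, so the spread between them may be technical in part. Values were deposited as log2, the sum of their antilogs lay between 1.98e+07 and 2.56e+07 in each library, and sequencing depth is unknown. Markers of other cells were present beside those of astrocytes, given here without division by length: the neuronal gene Snap25 averaged 15.67 on the log2 scale and the myelin gene Mbp 12.65, while the microglial gene Cx3cr1 averaged 7.43 and the endothelial gene Cldn5 7.29. The choroid plexus gene Ttr averaged 8.75 and ranged from 5.76 to 13.77 over the libraries. The astrocyte genes Slc1a2, Gfap and Aqp4 averaged 15.69, 15.06 and 12.73. Comparisons of males with proestrus or estrus were not made, because these groups share no batch and could be linked only through the metestrus libraries.

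Astrocytes supply neurons with metabolites, clear transmitters and ions from the extracellular space, and respond to transmitters through their own receptors. The 10 genes cover several of these tasks: a folate enzyme (Aldh1l1), a calcium-binding protein (S100b), transporters of bicarbonate (Slc4a4) and of small neutral amino acids (Slc7a10), lipid handling (Fabp7 and Acsbg1), a membrane protein of the claudin family (Cldn10), a neurotensin receptor (Ntsr2), a secreted protease (Htra1) and Ndrg2, a member of a family of stress- and differentiation-linked proteins. During the estrous cycle, circulating estradiol climbs to its peak around proestrus and is lower in the other stages. Estradiol acts through receptors that bind DNA.

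The 250 bases before the annotated start are shown for 4 members, since the results below turn on them. Aldh1l1 and Acsbg1 were the most closely correlated pair over the libraries before group and batch were fitted. Fabp7 was the most variable member, and S100b had the lowest adjusted p. The sequences come from RefSeq on build GRCm38.p6, whereas the deposited values were made with GRCm39, and run 5′ to 3′ on the strand of the gene. Positions are chr6:90550543-90550792 (plus strand) for Aldh1l1, chr9:54661886-54662135 (minus strand) for Acsbg1, chr10:57784673-57784922 (plus strand) for Fabp7 and chr10:76253586-76253835 (plus strand) for S100b. Capitals mark matches to the estrogen receptor half-site AGGTCA (or its reverse TGACCT), the SOX core ACAAT (or ATTGT) and the NFI half-site TTGGCA.
Aldh1l1: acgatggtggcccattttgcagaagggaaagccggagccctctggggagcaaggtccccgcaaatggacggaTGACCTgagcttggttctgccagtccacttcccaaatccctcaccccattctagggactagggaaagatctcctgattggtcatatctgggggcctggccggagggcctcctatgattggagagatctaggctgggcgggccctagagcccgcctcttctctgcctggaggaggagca
Acsbg1: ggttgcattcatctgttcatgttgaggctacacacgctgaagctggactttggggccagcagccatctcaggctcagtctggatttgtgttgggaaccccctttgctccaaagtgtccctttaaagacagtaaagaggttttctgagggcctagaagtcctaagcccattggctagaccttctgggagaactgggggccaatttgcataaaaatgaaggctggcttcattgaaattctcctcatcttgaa
Fabp7: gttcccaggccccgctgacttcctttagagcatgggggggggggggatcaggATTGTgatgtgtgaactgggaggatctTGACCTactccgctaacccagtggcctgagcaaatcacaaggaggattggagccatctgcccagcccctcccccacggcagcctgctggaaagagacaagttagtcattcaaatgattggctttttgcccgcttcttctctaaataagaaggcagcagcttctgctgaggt
S100b: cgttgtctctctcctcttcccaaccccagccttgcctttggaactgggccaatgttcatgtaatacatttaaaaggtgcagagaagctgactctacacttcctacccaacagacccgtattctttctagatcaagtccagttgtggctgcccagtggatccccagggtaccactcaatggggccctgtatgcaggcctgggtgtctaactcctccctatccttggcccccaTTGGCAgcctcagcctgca

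Windows from 250 bases before to 50 bases after the start were available for all 10 members, 14 windows in all, because Ndrg2 had 3 and Slc4a4 and Cldn10 had 2 each. Each motif was searched on both strands. The half-site AGGTCA was found in 1 window each of Aldh1l1, Fabp7, Ndrg2 and Slc4a4, that is in 4 of 14 windows against 16.3% of all 32851 mouse windows. In Aldh1l1 and Fabp7 the match begins 178 and 171 bases before the start. The full estrogen response element (GGTCA, any 3 bases, TGACC) was in none of the 14 and in 0.07% of all windows. TTGGCA was found in S100b and in 14.1% of all windows, ACAAT in Fabp7 and in 31% of all windows, and the steroid receptor half-site AGAACA in no member window and in 19% of all windows. A CCAAT box, a search added after the sequences were seen, was in 7 of 14 windows against 37.4% of all windows. It occurs 2 times in each of the 4 sequences shown, on either strand. TTGGCA shares bases with a reverse CCAAT match in S100b. G and C made up 36% (Cldn10) to 80% (Slc4a4) of the member windows against a median of 52.7%. Such matches describe letters, not binding.

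Levels per kilobase of annotated exon (mean log2 value minus log2 of the exon length in kilobases, GENCODE vM21) placed Ndrg2 first at 14.26 ± 0.24 (SD, n = 19 libraries) and S100b next at 14.21 ± 0.28. Below them came Fabp7 at 13.42 ± 0.40, Ntsr2 at 12.55 ± 0.20, Acsbg1 at 11.96 ± 0.26, Htra1 at 11.56 ± 0.30 and Cldn10 at 11.25 ± 0.20. Aldh1l1 at 9.95 ± 0.31, Slc7a10 at 9.80 ± 0.27 and Slc4a4 at 8.68 ± 0.20 were lowest. The order of Ndrg2 and S100b was not separated by the spread, with a mean difference of 0.05 ± 0.28 (SD) and Ndrg2 higher in 12 of 19 libraries. Likewise Aldh1l1 exceeded Slc7a10 by 0.15 ± 0.33 and in 13 of 19 libraries. The higher member of the pair was higher in all 19 libraries for S100b over Fabp7, Ntsr2 over Acsbg1, Cldn10 over Aldh1l1 and Slc7a10 over Slc4a4. The exon length is the union over annotated transcripts, for Slc4a4 10815 bases over 8 transcripts. Whether the deposited values were already scaled by length is not given, so the order per kilobase holds only if they were not. Before division by length every member was abundant: the lowest, Slc7a10, stood at or above 87.0% of the genes tested, and Ndrg2 at or above 99.9%.

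**Figure D1:**
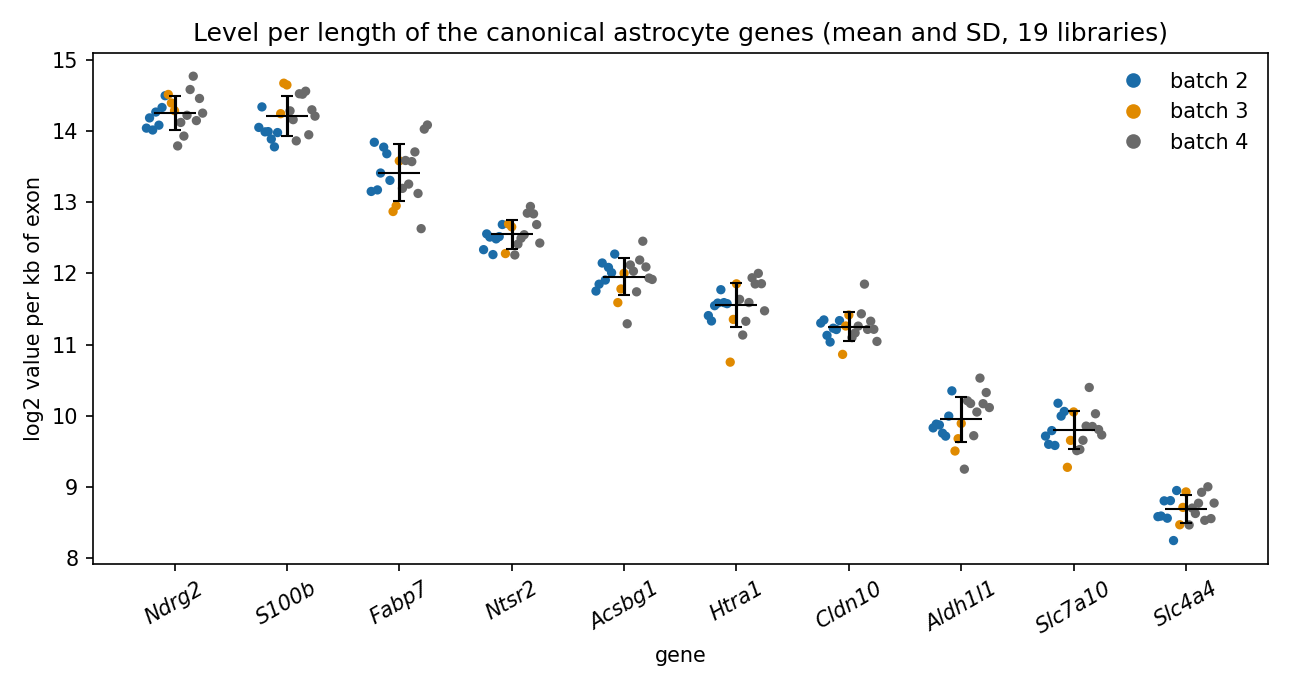
Level of each gene per kilobase of annotated exon on a log2 scale, 1 point per library (19 libraries) with the mean. Ndrg2 (mean 14.26) and S100b (14.21) overlap at the top, and Slc4a4 (8.68) is lowest. Whether the deposited values were already scaled by length is not given.

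Aldh1l1 encodes the cytosolic enzyme that oxidises formyl-tetrahydrofolate and thereby removes folate-bound one-carbon units. Its log2 value ran from 11.42 through a median of 12.06 to 12.38 in metestrus, and was 12.04, 11.93 and 11.85 in proestrus. Estrus libraries held 11.89, 12.17, 12.52 and 11.68, and male libraries 12.70, 12.34, 12.50 and 12.29. Males were on the high side, but their lowest value lay inside the metestrus range, and the stages overlapped throughout. Males over metestrus gave a log2 fold change of 0.40 ± 0.18 (SE, 95% interval 0.03 to 0.78), with an unadjusted p of 0.0354 and an adjusted p of 0.908. Unadjusted p below 0.05 was reached by 1 of the 10 members here, against 5.33% of all genes, and it was Aldh1l1. The value came to 0.25 without metestrus replicate 4, the lowest Aldh1l1 library. That library also stood apart in choroid plexus and ependymal markers, with a mean log2 value of 7.21 over the list against 4.59 to 5.76 in the other metestrus libraries and 4.57 to 6.75 in males, whose part in the result was not tested. Weighting libraries by their fitted quality gave 0.56 with an adjusted p of 0.0334, in a fit that called 534 genes and stopped before its weights converged. Centring each library on other astrocyte genes gave 0.24. Rpl10a, the gene fused to EGFP in the tag, averaged 12.99 ± 0.35 in males (SD, n = 4) and 12.38 ± 0.13 in metestrus (n = 8). Its fold change for males over metestrus was 0.60 ± 0.16 (SE, 95% interval 0.27 to 0.93, adjusted p = 0.663). That of estrus over metestrus was -0.46 ± 0.18 (95% interval -0.83 to -0.08, adjusted p = 0.346). Native and tagged copies are not separated in the row of Rpl10a, and its part in the Aldh1l1 values was not tested. Between stages the Aldh1l1 fold changes were -0.10 ± 0.22 for proestrus over metestrus, 0.00 ± 0.21 for estrus over metestrus and 0.10 ± 0.21 for estrus over proestrus. Of 22 other genes of the folate cycle, none was called in any comparison. The lowest p among them belonged to Mthfd2, a mitochondrial folate enzyme, with a fold change of 1.62 ± 0.42 for estrus over proestrus (adjusted p = 0.0633).

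S100b encodes a small calcium-binding protein that astrocytes also secrete. In metestrus the log2 value ranged from 14.44 to 15.22 with a median of 14.89, and proestrus libraries held 14.56, 14.57 and 15.25. Estrus libraries held 14.46, 14.35, 14.55 and 14.82, against 15.13, 14.52, 14.87 and 14.78 in males. Estrus holds the lowest library of the 19, and its other 3 values lie inside the metestrus range, which pools all batches. Within batch 2 the estrus values, 14.35 to 14.55, lay below those of metestrus (14.62 and 14.91) and proestrus (14.56 and 14.57). In batch 3 the single estrus library read 14.82, against 15.22 in metestrus and 15.25 in proestrus. Estrus over metestrus was -0.33 ± 0.16 (SE, 95% interval -0.67 to 0.01), and its adjusted p of 0.448 was the lowest of the 40 member tests. Leaving out 1 library at a time moved it between -0.41 and -0.24, and centring on other astrocyte genes moved it to -0.12. Batch moved with this gene as well: the 3 libraries of batch 3 read 14.82 to 15.25, and the 7 of batch 2 read 14.35 to 14.91. Fold changes were -0.13 ± 0.17 for proestrus over metestrus, -0.20 ± 0.16 for estrus over proestrus and -0.02 ± 0.14 for males over metestrus. Among 11 of 16 S100 family and receptor genes that were tested, none was called, and S100a11 had the lowest p (0.71 ± 0.25 for males over metestrus, adjusted p = 0.852).

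Ndrg2 stood with S100b at the top of the members in level per kilobase. Metestrus values ran from 15.56 through a median of 15.92 to 16.35, and those of proestrus were 15.78, 16.04 and 16.16. The estrus values were 15.85, 16.10, 16.27 and 16.28, and the male values 16.54, 15.92, 16.23 and 16.02. All groups overlapped, and the highest library was a male. Fold changes were 0.05 ± 0.18 for proestrus over metestrus, 0.20 ± 0.17 for estrus over metestrus, 0.15 ± 0.17 for estrus over proestrus and 0.28 ± 0.15 for males over metestrus, with adjusted p values from 0.689 to 0.971. None of the 3 family members Ndrg1, Ndrg3 and Ndrg4 was called. Ndrg4 had the lowest p (0.55 ± 0.19 for estrus over metestrus, adjusted p = 0.280).

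Slc4a4 encodes a sodium bicarbonate cotransporter that sets pH inside and outside astrocytes. It varied least over the libraries in range after Ntsr2: metestrus ran from 11.90 to 12.36 with a median of 12.10, and proestrus read 12.24, 11.99 and 12.14. Estrus libraries read 12.24, 11.68, 12.38 and 11.90, and male libraries 11.96, 12.43, 11.99 and 12.20. The lowest library was from estrus and the highest was male, and no group stood apart. Fold changes lay between -0.08 ± 0.18 (estrus over metestrus) and 0.02 ± 0.15 (males over metestrus), and every adjusted p was at least 0.898. Of 17 genes of bicarbonate and proton handling, none was called. The anion exchanger Slc4a2 had the lowest p, with -0.89 ± 0.20 for estrus over metestrus (adjusted p = 0.0926). Its groups did not overlap there, as was so for 3.33% of all genes tested.

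Slc7a10 encodes the transporter Asc-1 for small neutral amino acids such as serine, glycine and alanine. Its metestrus values ran from 10.59 through a median of 10.76 to 11.47, and the proestrus values were 10.87, 10.66 and 10.73. Estrus held 11.25, 11.07, 11.14 and 10.35, while males held 10.93, 11.10, 10.88 and 10.81. Estrus thus has 3 libraries near the top and the lowest library of all 19, and its range spans those of proestrus and males. Fold changes were -0.11 ± 0.23 for proestrus over metestrus, 0.07 ± 0.22 for estrus over metestrus, 0.19 ± 0.22 for estrus over proestrus and 0.06 ± 0.19 for males over metestrus. Without estrus replicate 4, estrus over proestrus was 0.46 with an adjusted p of 0.243. None of 17 tested genes of serine and glycine synthesis and transport was called. Slc1a5, a neutral amino acid exchanger, had the lowest p (3.24 ± 0.91 for estrus over proestrus, adjusted p = 0.0789), with a proestrus mean of 1.92 that lies below the filter value of 3.32.

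Fabp7 encodes the brain fatty acid binding protein, a carrier of polyunsaturated fatty acids that is abundant in immature glia. In metestrus it ran from 13.48 through a median of 13.90 to 14.17, and proestrus read 13.50, 13.74 and 13.27. Estrus read 14.10, 14.01, 13.63 and 13.19, and males read 13.45, 12.95, 14.35 and 14.41. Males held both the lowest and the highest of the 19 libraries, all in batch 4, a range of 1.46. The spread left after group and batch was 0.42 (SD), above or equal to that of 94.5% of the 235 genes within 0.5 of its mean level, while the other members lay between 33.8% and 79.1% of genes of their own level. The lowest interval bound of all 40 member comparisons was that of Fabp7 for proestrus over metestrus, -0.35 ± 0.29 (95% interval -0.96 to 0.26, adjusted p = 0.657). That value ranged from -0.61 without metestrus replicate 1 to -0.14 without metestrus replicate 3. The others were -0.15 ± 0.27 for estrus over metestrus, 0.20 ± 0.27 for estrus over proestrus and 0.00 ± 0.24 for males over metestrus.

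Acsbg1 encodes an acyl-CoA synthetase that activates long-chain fatty acids. Its metestrus values ran from 13.14 to 14.04 with a median of 13.78, and proestrus libraries held 13.997, 13.76 and 13.63. Estrus libraries held 13.93, 13.86, 14.12 and 13.44, and males 14.30, 13.94, 13.79 and 13.77. The lowest library was metestrus replicate 4 and the highest male replicate 1, as for Aldh1l1, and the groups overlapped. Fold changes were 0.08 ± 0.21, 0.10 ± 0.20 and 0.03 ± 0.20 for proestrus over metestrus, estrus over metestrus and estrus over proestrus, and 0.22 ± 0.17 for males over metestrus (adjusted p = 0.983). None of 15 tested genes that activate or carry fatty acids was called, and Acsl1, another acyl-CoA synthetase, had the lowest p (0.94 ± 0.29 for estrus over proestrus, adjusted p = 0.104).

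Cldn10 belongs to the claudins, which form tight junctions and paracellular channels in epithelia. Metestrus values ran from 12.47 through a median of 12.70 to 13.22, and proestrus values were 12.50, 12.41 and 12.63. Estrus libraries read 12.60, 12.59, 12.71 and 12.24, and males 12.59, 12.70, 12.59 and 12.42. A single metestrus library, replicate 8, lies above all others, and with batches pooled the remaining values of the 4 groups intermix. Within batch 2 the proestrus values lay below those of metestrus, 12.68 and 12.72. In batch 3 proestrus read 12.63 and metestrus 12.79. Fold changes were -0.21 ± 0.18 for proestrus over metestrus, -0.20 ± 0.17 for estrus over metestrus, 0.01 ± 0.17 for estrus over proestrus and -0.16 ± 0.15 for males over metestrus, with adjusted p values of at least 0.652. Without estrus replicate 4, estrus over metestrus was -0.05, and without metestrus replicate 8, males over metestrus was -0.04. None of 12 tested claudins and tight junction partners was called. The endothelial Cldn5 had the lowest p (-1.08 ± 0.43 for estrus over proestrus, adjusted p = 0.236).

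Ntsr2 encodes a low-affinity receptor for the peptide neurotensin. It had the narrowest range of the 10 over the libraries, 0.68: metestrus ran from 13.90 through a median of 14.16 to 14.49, and proestrus read 14.15, 13.91 and 14.34. Estrus values were 14.13, 14.16, 14.33 and 13.92, and male values 14.58, 14.48, 14.33 and 14.07. Males held the highest library, and the 3 stages covered nearly the same span. Stage fold changes were -0.02 ± 0.17, -0.02 ± 0.16 and 0.01 ± 0.16 for proestrus over metestrus, estrus over metestrus and estrus over proestrus, and that of males over metestrus was 0.21 ± 0.14 (95% interval -0.08 to 0.51, adjusted p = 0.979). The ligand Nts and 6 other receptor genes of the family were tested, and none was called. The sorting receptor Sorl1 had the lowest p (-0.41 ± 0.15 for estrus over proestrus, adjusted p = 0.187).

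Htra1 encodes a secreted serine protease. In metestrus it ran from 12.66 through a median of 13.02 to 13.47, and proestrus libraries read 13.07, 13.11 and 12.88. Estrus libraries read 13.30, 13.12, 13.10 and 12.28, and males 13.38, 13.53, 13.38 and 13.0003. The lowest library, estrus replicate 4, lay apart from the other estrus libraries, and 3 of 4 males lay toward the high end of the metestrus range, 1 of them above it. Fold changes were -0.04 ± 0.23 for proestrus over metestrus, -0.13 ± 0.21 for estrus over metestrus, -0.09 ± 0.21 for estrus over proestrus and 0.27 ± 0.19 for males over metestrus, with adjusted p values of at least 0.860. None of Htra2, Htra3 and Htra4 was called. Htra4 had the lowest p (-2.98 ± 0.89 for proestrus over metestrus, adjusted p = 0.124), with a proestrus mean of 0.79 that lies below the filter value.

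**Figure D2:**
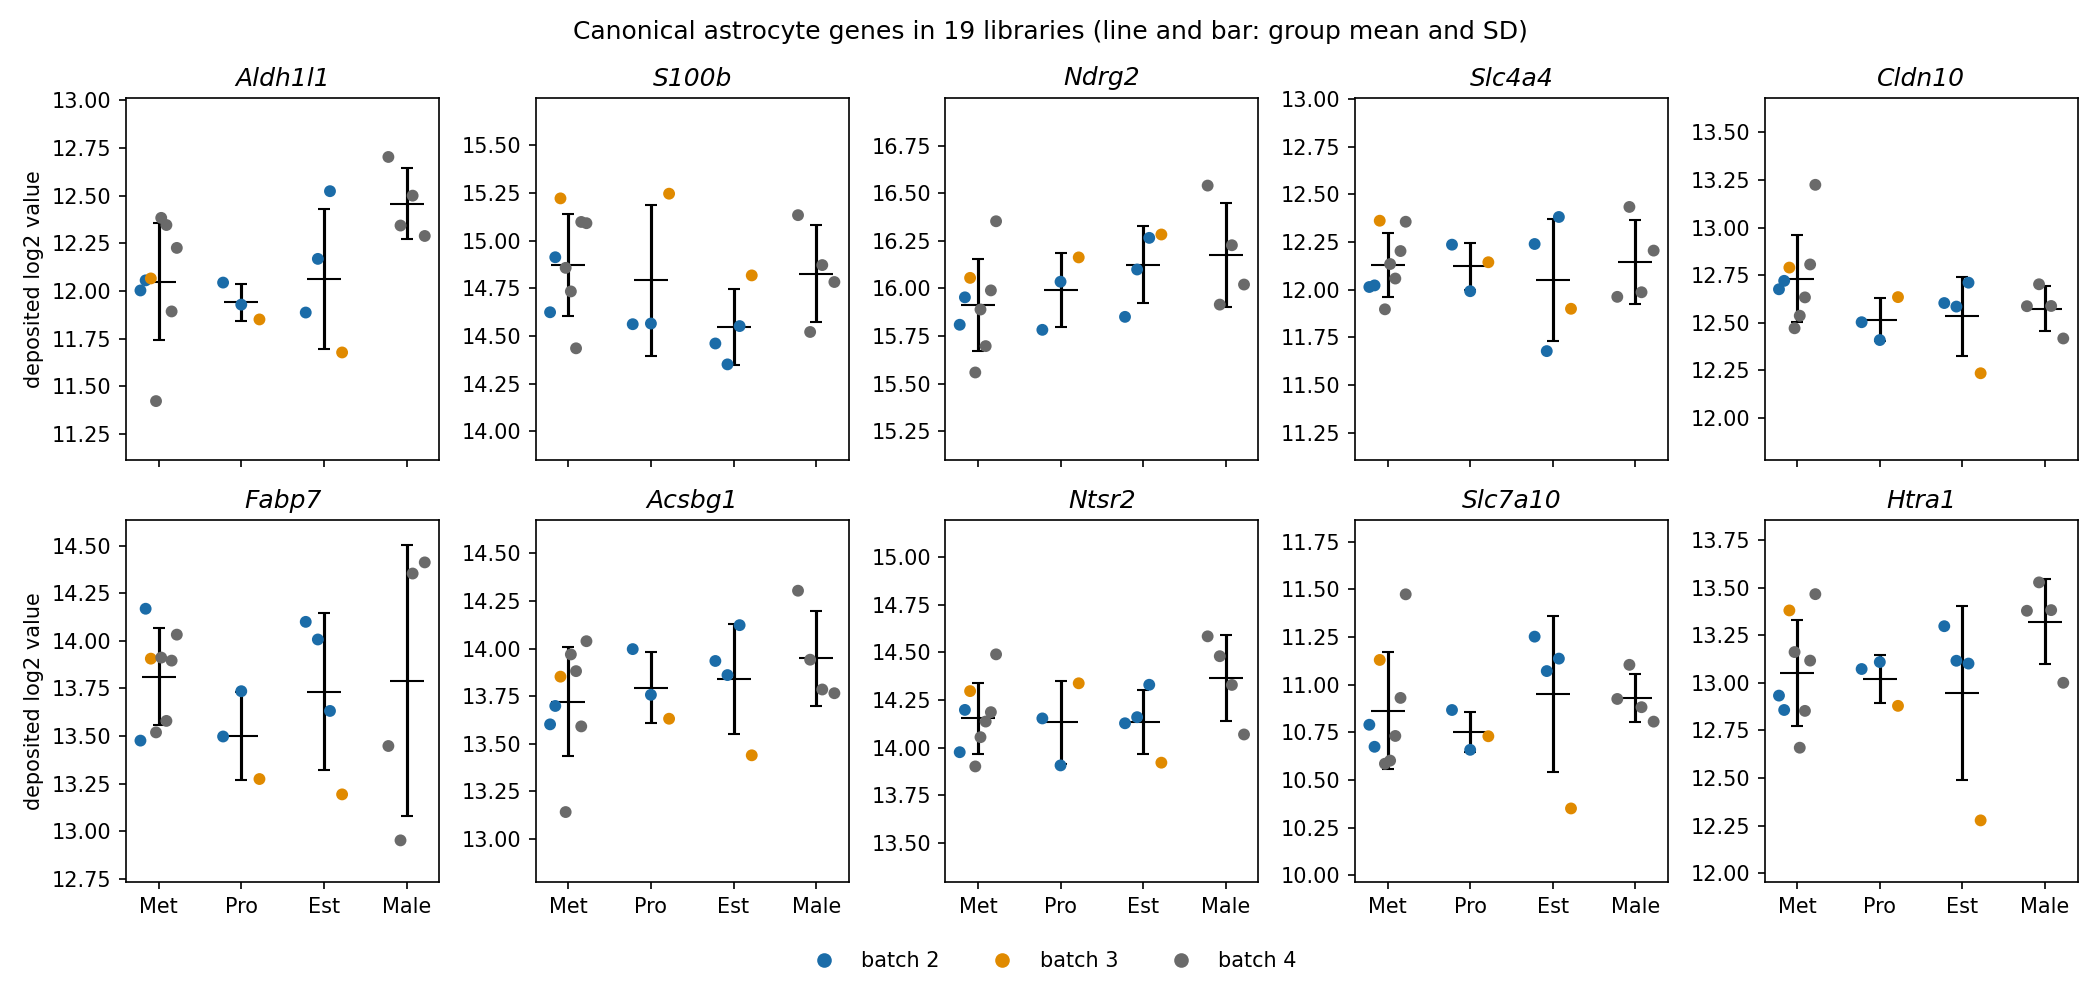
Log2 value of each of the 10 genes in every library (points) by group, 8 metestrus, 3 proestrus, 4 estrus and 4 male libraries, with the mean and the SD. With batches pooled, the groups overlap in each of the 4 comparisons tested, and the widest spread is that of Fabp7 in males (12.95 to 14.41).

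Over the 10 genes together, 0 were called in each comparison. For proestrus over metestrus the background was 204 of 20644 genes called (0.988%), for estrus over metestrus 18 (0.0872%), for estrus over proestrus 194 (0.94%) and for males over metestrus 5 (0.0242%). At these shares a list of 10 genes with no call is near the background. At an unadjusted p below 0.05 the 3 stage comparisons held 0 members, against 13.1%, 11.3% and 14.5% of all genes in the same order. With batches pooled, the groups overlapped in all 40 cases. By the same measure 8.73%, 3.33%, 9.06% and 1.44% of all genes had groups that did not overlap in the 4 comparisons. Overlap within batches was not counted, for members or for all genes. It can differ there: in both batch 2 and batch 3, S100b in estrus and Cldn10 in proestrus lay below metestrus.

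All 40 intervals of 95% lay within ±1 on the log2 scale, from -0.96 (Fabp7, proestrus over metestrus) to 0.78 (Aldh1l1, males over metestrus), so that a change of 2-fold or more lay outside each of them under this model. An interval that excluded 0 was found for 1 of the 40, Aldh1l1 in males. Which intervals did so depended on the setting. Centring on other astrocyte genes left 2, Ndrg2 for estrus over metestrus (0.42) and Cldn10 for males over metestrus (-0.32), neither of them called. Without metestrus replicate 8 there were 4 among 30. Smaller changes are not excluded by these data. Some intervals widened beyond ±1 when a library was left out, for example to -1.27 without metestrus replicate 1.

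**Figure D3:**
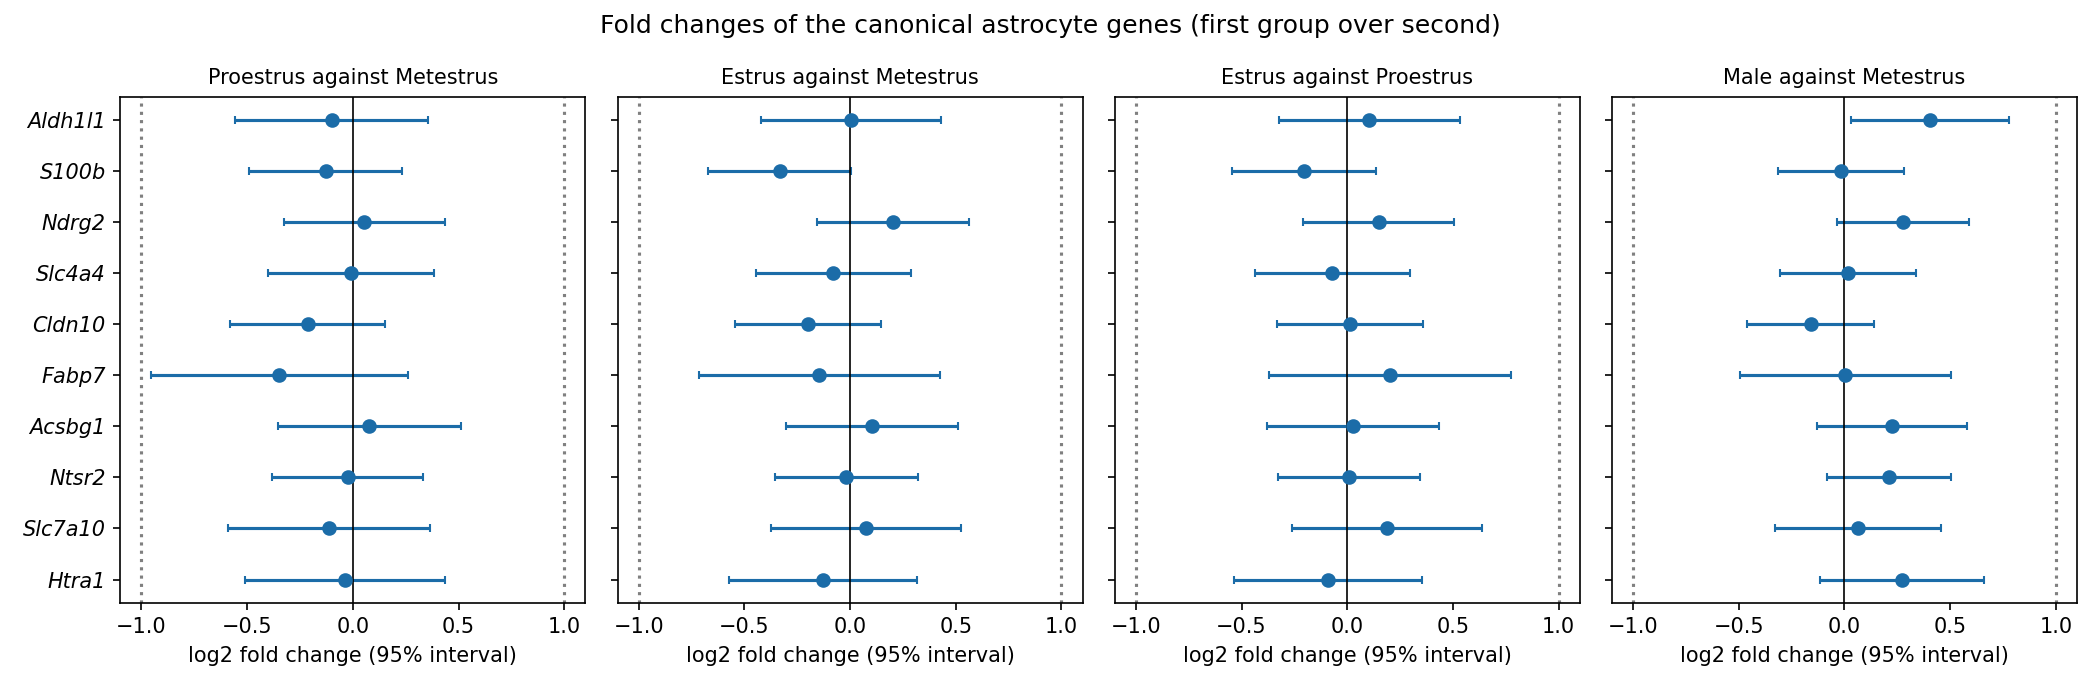
Log2 fold change of each gene in the 4 comparisons (first group over second) with its 95% interval from the fit; dotted lines mark 2-fold. Every interval lies between the dotted lines, and only that of Aldh1l1 in males over metestrus (0.03 to 0.78) leaves out 0.

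Median fold changes of the 10 genes stayed close to those of all genes in the stage comparisons, and lay further above them for males over metestrus. For proestrus over metestrus 2 were positive and 8 negative, with a median of -0.07 against -0.09 for all genes, of which 41.9% were positive. For estrus over metestrus 4 were positive and 6 negative, with a median of -0.05 against -0.07 (43.5% positive). For estrus over proestrus 7 were positive and 3 negative, with 0.02 against 0.02 (52.0% positive), and for males over metestrus 8 were positive and 2 negative, with 0.14 against 0.04 (55.3% positive). These signs depend on single libraries and on the scaling. Leaving out 1 library at a time moved the members' median from -0.15 (without metestrus replicate 1) to 0.04 (without metestrus replicate 3) for proestrus over metestrus, and from 0.04 (without metestrus replicate 4) to 0.26 (without metestrus replicate 8) for males over metestrus. For estrus over metestrus it went from -0.12 (without metestrus replicate 1) to 0.14 (without estrus replicate 4), and for estrus over proestrus from -0.05 (without estrus replicate 3) to 0.17 (without estrus replicate 4). Centring each library on the 32 other astrocyte genes moved the median of all genes to 0.06, 0.15, 0.10 and -0.13 in the same order, and that of the 10 genes to 0.08, 0.17, 0.09 and -0.03. The 10 genes then held 8, 9, 8 and 5 positive values.

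The 32 other astrocyte-enriched genes, among them Slc1a2, Aqp4, Gja1 and Glul, gave 0 calls as well. Their medians were -0.14 for proestrus over metestrus, -0.21 for estrus over metestrus, -0.06 for estrus over proestrus and 0.14 for males over metestrus, with 26, 26 and 21 of 32 negative in the stage comparisons and 27 of 32 positive in males. The lowest p belonged to Gfap, the intermediate filament gene of reactive astrocytes, at 0.70 ± 0.18 for males over metestrus (adjusted p = 0.650). Of 22 transcription factors of astrocyte fate none was called. For males over metestrus 20 of 22 were positive with a median of 0.29, for estrus over metestrus 19 of 22 were negative with a median of -0.14, for estrus over proestrus 16 of 22 were negative (-0.09), and for proestrus over metestrus 14 of 22 (-0.05). Sox9 had the lowest p among them, 0.47 ± 0.13 for males over metestrus (adjusted p = 0.691).

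Markers of other cells gave 0 calls in any list: 18 neuronal, 12 oligodendrocyte, 8 precursor, 12 microglial, 14 endothelial and mural, 11 choroid plexus and ependymal and 8 fibroblast genes were tested. The mean log2 value of the neuronal list ranged from 11.82 to 12.15 in metestrus, 11.90 to 12.14 in proestrus, 11.93 to 12.13 in estrus and 11.80 to 12.05 in males. Other lists leaned further to 1 side in some comparisons, of which examples follow. Oligodendrocyte markers were positive in 12 of 12 for estrus over metestrus (median 0.35), and their list mean was 9.50 to 9.66 in metestrus and 9.66 to 10.25 in estrus. Endothelial and mural markers were negative in 10 of 14 for estrus over metestrus (median -0.72) and in 11 of 14 for estrus over proestrus (-0.35). They were positive in 12 of 14 for males over metestrus (median 0.43). Their list mean was 6.13 to 6.98 in metestrus, 5.14 to 6.27 in estrus and 6.14 to 7.86 in males. Choroid plexus and ependymal markers were negative in 9 of 11 for proestrus over metestrus (median -0.60). Precursor markers were negative in 6 of 8 for estrus over proestrus (median -0.51). The part of these lists in the members' values was not tested. The lowest p per list belonged to Slc17a7 (-0.44, estrus over proestrus, adjusted p = 0.205), Mog (0.89, estrus over metestrus, 0.267), Lhfpl3 (-1.74, estrus over metestrus, 0.0533), Siglech (-1.20, estrus over proestrus, 0.203), Tek (-3.68, estrus over metestrus, 0.247), Ccdc153 (1.56, estrus over proestrus, 0.100) and Col1a1 (1.50, males over metestrus, 0.691). Tek had an estrus mean of 0.49, below the filter value.

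From library to library, some of the 10 genes varied together. Of 45 pairs 40 had a positive Pearson correlation over the 19 libraries, with a median r of 0.35. A permutation test with 100000 resamples, two-sided and adjusted over the 45 pairs by the Benjamini-Hochberg method, passed 10 pairs by Pearson's r, 6 by Spearman's rho and 5 by both. These p-values treat the libraries as independent, although the deposited values lack some directions of variation, and the resamples shuffle libraries across groups and batches. The like share of positive or passing pairs among other genes is not given here. Library-wide level varied too: the median of all genes tested was 7.47 in estrus replicate 4 and 7.76 in metestrus replicate 8. Its part in these correlations was not tested.

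Aldh1l1 and Acsbg1 were the closest pair before group and batch were fitted, with r = 0.84 (permutation p adjusted to 0.0009) and rho = 0.74 (0.0171). Without metestrus replicate 4 and male replicate 1, r was 0.67, and it was 0.59 in the 7 libraries of batch 2 and 0.91 in the 9 of batch 4. In the values left after group and batch were fitted, r was 0.87 for this pair. There it was 0.91 for Cldn10 with Slc7a10 and 0.88 for Cldn10 with Ntsr2. Slc7a10 and Htra1 gave r = 0.78 (0.00157) and rho = 0.70 (0.0261), r = 0.66 without metestrus replicate 8 and estrus replicate 4, and 0.75 and 0.72 within batches 2 and 4. Cldn10 and Slc7a10 gave r = 0.76 (0.00375) and rho = 0.61 (0.0472). Without the same pair of libraries r was 0.46, and within batches 2 and 4 it was 0.24 and 0.88. Before group and batch were fitted, the r of Cldn10 and Slc7a10 thus rests in good part on those libraries and on batch 4.

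Ntsr2 passed by both measures with Slc7a10 and Cldn10. With Slc7a10 it gave r = 0.65 (0.0196) and rho = 0.64 (0.0452), r = 0.64 without male replicate 1 and metestrus replicate 8, and 0.54 and 0.77 within batches 2 and 4. With Cldn10 it gave r = 0.62 (0.0200) and rho = 0.65 (0.0452), r = 0.49 without metestrus replicate 8 and estrus replicate 4, and 0.61 and 0.54 within batches. Fabp7 gave r between -0.06 and 0.25 to the other members. Those values depend on single libraries: without male replicates 2 and 4, r was 0.48 with Slc7a10 and 0.49 with Htra1, while within batch 4 it was -0.02 and -0.26. S100b ranged from -0.13 (Acsbg1) to 0.44 (Ndrg2). In the values left after group and batch were fitted, its r was 0.15 with Acsbg1 and 0.69 with Ndrg2. Within batches 2 and 4, r of S100b with Ndrg2 was -0.19 and 0.65. None of the pairs that include Fabp7 or S100b passed the test, which used the values before group and batch were fitted.

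**Figure D4:**
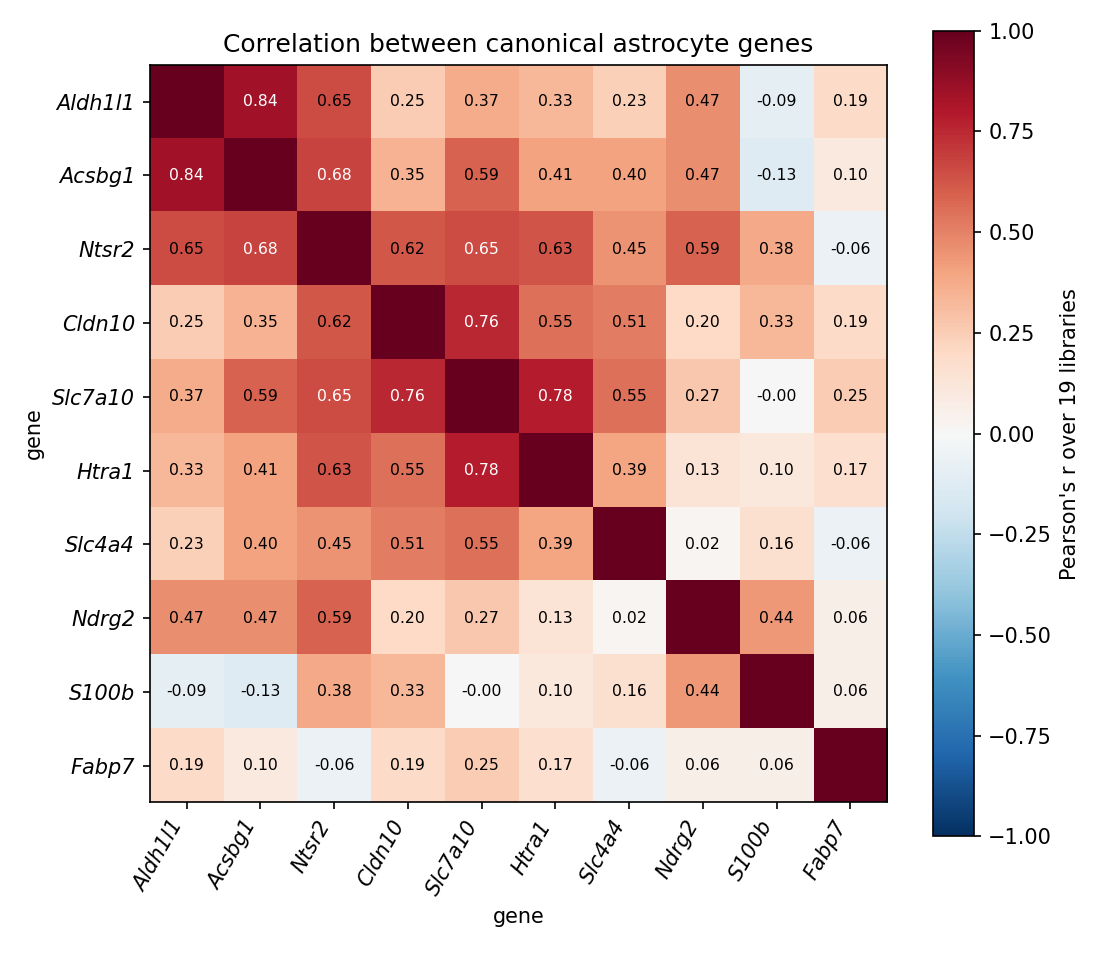
Pearson's r between each pair of the 10 genes over the 19 libraries (colour and number, from -1 to 1). Aldh1l1 with Acsbg1 (0.84) and Slc7a10 with Htra1 (0.78) and Cldn10 (0.76) are the highest, and the rows of Fabp7 and S100b are pale.

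The mean of the 10 genes followed that of the 32 other astrocyte genes over the libraries, with r = 0.86 and rho = 0.84, as a description without a test. Leaving out metestrus replicate 8 and estrus replicate 4 gave 0.74, and batches 2 and 4 gave 0.38 and 0.87. Metestrus replicate 8 was above the median of all 19 libraries for all 10 members and had the highest mean of both lists, 13.68 and 14.07. Estrus replicate 4 had the lowest, 13.01 and 12.97. Metestrus replicate 4 was lowest for 4 members (Aldh1l1, Ndrg2, Acsbg1 and Ntsr2), and estrus replicate 4 for 3 (Cldn10, Slc7a10 and Htra1). The mean of the members was 13.33 ± 0.19 in metestrus (SD, n = 8), 13.26 ± 0.04 in proestrus (n = 3), 13.29 ± 0.20 in estrus (n = 4) and 13.45 ± 0.08 in males (n = 4).

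Fibroblast and meningeal markers moved with the members too, with r = 0.65 and rho = 0.66 over the 19 libraries, 0.61 without male replicate 2 and estrus replicate 4, and 0.50 and 0.60 within batches 2 and 4. The fibroblast list averaged 7.30 in estrus replicate 4 and 8.54 in metestrus replicate 8, and its part in the members' values was not tested. Neuron markers gave r = -0.24 and rho = -0.34, and the other 5 lists of other cell types lay between -0.31 and 0.12. Within batches 2 and 4 these relations differed: r was 0.80 and 0.04 for oligodendrocyte markers, 0.60 and -0.57 for choroid plexus and ependymal markers, -0.56 and -0.22 for endothelial and mural markers, -0.46 and -0.07 for precursor markers and -0.45 and -0.06 for microglial markers. All these means share the scaling of their library.

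**Figure D5:**
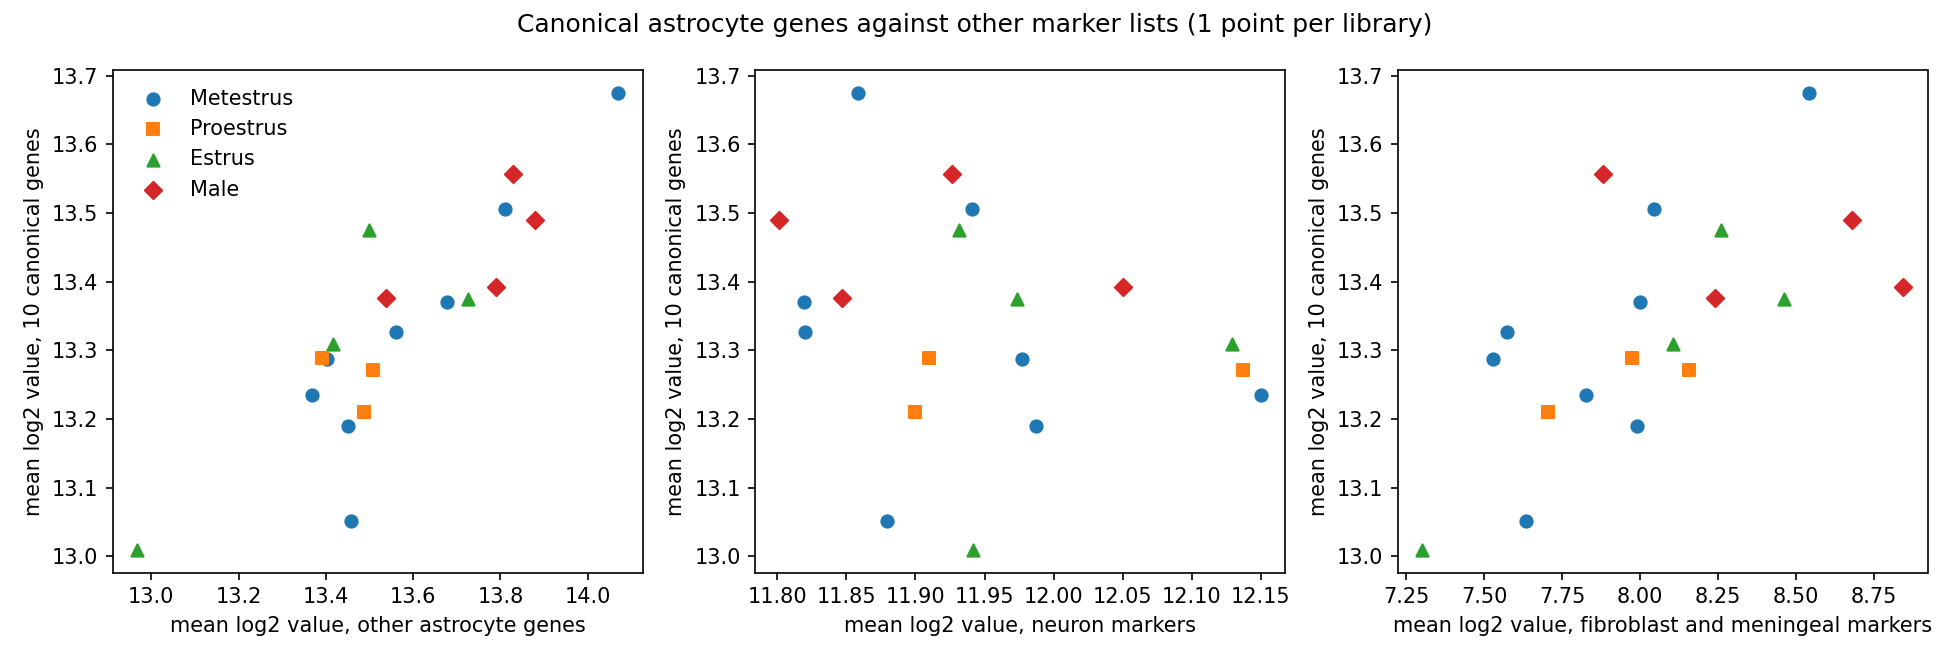
Mean log2 value of the 10 genes (vertical) against the mean of 32 other astrocyte genes, of 18 neuron markers and of 8 fibroblast and meningeal markers (horizontal), 1 point per library, marked by group. The first panel slopes upward (r = 0.86), the neuron panel is near flat (-0.24), and the fibroblast panel slopes upward more loosely (0.65).

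Among all other genes tested, those closest to the average of the 10 scaled members over 19 libraries were Cpq (r = 0.92), Appl2 (0.89), Grina (0.88), Ncan (0.88), Cntnap2 (0.87), Pbxip1 (0.87), Pdzd11 (0.86), Txndc12 (0.86), Nalf1 (0.85) and 1 gene without a symbol (0.85). Taken singly, the closest gene was Ephx2 for Aldh1l1 (0.89), Ndrg2's was 4930425L21Rik (0.84), Slc4a4's was Man2a2 (0.88) and Cldn10's was Plxnb2 (0.89). For Fabp7 it was Qrich1 (0.86), for Acsbg1 Cat (0.90), for Ntsr2 Grina (0.87), for Slc7a10 Saraf (0.91) and for Htra1 Kcnk1 (0.89), and S100b was closest to a gene without a symbol (0.91). These are the highest of 20644 genes and carry no test. Each member had at least 1 other gene closer to it than any other member was.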

How the data were processed

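Polyadenylated RNA bound to tagged ribosomes was sequenced in 19 mouse libraries. The authors deposited 1 log2 value per gene and library. Tools that the submitters list in their processing notes are Salmon, STAR and edgeR, with the build GRCm39; the authors' versions, scaling, pseudocount and filters are not given in the sources used. The log base was settled from sums of antilogs, and depth is unknown. After centring, the 19 columns span 14 dimensions in place of 18, so 4 directions of variation are missing. The model counts 13 residual degrees of freedom where the rank allows 11, and its p-values are somewhat too small.

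A gene was tested when at least 3 libraries reached 3.32, which is 10 on the linear scale, leaving 20644 of 21749 (94.9%). Group and batch were fitted with limma 3.58.1 (R 4.3.3, trend and robust prior) over the 19 libraries. Two-sided p-values carry Benjamini-Hochberg adjustment over every gene tested, at 0.05. With batch in the model, stage comparisons rest on batches 2 and 3, and the male comparison on batch 4. The fit was tested on simulated data. The members, lists and tests were chosen with earlier results of these data known. All 10 members are named; of each other list, the genes called or, with none called, the gene with the lowest p over the 4 comparisons; and the genes with the highest r to the members. Replicate numbers follow deposition order and name libraries only. Alternatives covered scaling, filtering, batch, variance model, library weights and leaving out each library.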

Additional observations from a re-analysis of the deposited data

Results flagged for a closer look

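Cldn10 in metestrus replicate 8 was 13.22 on the log2 scale, apart from the other 7 metestrus libraries, of which the nearest was 12.81. The gap to the nearest library, divided by the range of the group, exceeded Dixon's 95% critical value for 8 libraries. In all, 30 sets of member values (10 genes in the metestrus, estrus and male groups) were examined in this way, chance alone gives about 1 in 20, and 1 was found. The same library was above the median of the 19 for all 10 members.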

How the results depend on the processing

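The 830 member fold changes recomputed under 12 alternatives and 19 omissions of 1 library kept their sign in 738 cases, and 92 changed sign with neither value called. Array weights called 1 member in males over metestrus (Aldh1l1), and no other setting called any. Counts of all genes called moved more; in the order proestrus over metestrus, estrus over metestrus, estrus over proestrus and males over metestrus they were 38, 0, 72 and 1 with a mean log2 value of at least 5, 1146, 899, 3.6e+02 and 10 without batch, and 419, 0, 691 and 534 with array weights. The 3 stage counts were 1, 0 and 0 within batches 2 and 3, and 75, 0 and 52 with the removed directions counted. Estrus over metestrus gave 4 after quantile normalization, 8 after centring on other astrocyte genes and 49 without trend and robust prior, where males over metestrus gave 9. Median centring gave 310 for estrus over proestrus (209 higher and 101 lower, against 123 and 71). Centring on other astrocyte genes turned the members' median to 0.17 for estrus over metestrus and -0.026 for males over metestrus. Leaving out 1 library at a time gave 59 to 188, 0 to 55, 60 to 435 and 5 to 8 genes in the order above (lowest without metestrus replicate 1 for the first and second, also without estrus replicate 2 for the second, and without proestrus replicate 1 for the third; highest without metestrus replicate 3 for the second and estrus replicate 4 for the third), and members' medians of -0.12 (without metestrus replicate 1) to 0.14 (without estrus replicate 4) for estrus over metestrus; they were -0.15 to 0.04 for proestrus over metestrus, -0.05 to 0.17 for estrus over proestrus and 0.04 to 0.26 for males over metestrus. Interval bounds passed ±1 in 6 settings, to -1.27 without metestrus replicate 1, -1.12 and -1.08 without proestrus replicates 2 and 3, 1.01 without estrus replicate 4, -1.02 with array weights and -1.08 without trend and robust prior. In batch 4, titles give males and metestrus females shared numbers. The correlations of same-numbered deviations were -0.10, -0.20, 0.15 and -0.01, and 1 of 4 was highest with its own number. So few values cannot show whether the numbers mark a pairing, and the main fit treated the numbers as names. A replicate block on them called 4 genes, 0 members, and gave a members' median of 0.14. The causes of these shifts were not tested. Depth is unknown and limits low genes more than the abundant members.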
